A study of Mus musculus with 8 samples.

Results

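The comparison described here set Keap1 null cells grown as tumours in mice against the same cells grown in a dish. Its members were taken by the sample titles: the 2 arrays of Keap1–/– TR MEFs from allografts and the 2 arrays of these cells from in vitro culture, 4 of the 8 mouse arrays of the study. MEFs are mouse embryonic fibroblasts, and the labels do not spell out TR. The other 4 arrays came from WT TR MEFs, 2 from dishes and 2 from allografts, and they served here for the spread between arrays and for the test of whether a change differed between the lines. For allografts, 3000000 Keap1 null cells or 10000000 WT cells were injected into nu/nu nude mice, and tumours of 100 to 150 mm3 were taken. From each sample, 500 ng of total RNA was labelled. All 8 samples carry the TR designation, no drug or other agent is named for any of them, and the age and sex of the host mice are not given in the labels.

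Several properties limit the comparison as a model. Each genotype was represented by cells under 1 name, so a genotype cannot be told apart from a line. Whether arrays 1 and 2 of a group are separate cultures and animals or repeated hybridisations is not stated, and p-values then measure only the spread between these arrays, which may be technical. Nude mice lack a thymus and have few T cells, but they keep macrophages, neutrophils, mast cells, NK cells, B cells, vessels and connective tissue. A tumour contains these host cells beside the injected ones, and since both are mouse cells the array reads their RNA together. In such bulk samples, fewer cells of a type and less RNA per cell cannot be told apart.

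Keap1 is the sensor subunit of a ubiquitin ligase that marks the transcription factor NRF2, the product of Nfe2l2, for degradation. Cells without Keap1 keep NRF2 and express genes of glutathione synthesis, detoxification and NADPH supply at a high level, and mutations with this effect occur in human tumours. A tumour differs from a dish in oxygen, nutrients, matrix, growth factors and neighbouring cells. The ATF4 pathway responds to amino acid shortage and to stress of the endoplasmic reticulum, the HIF pathway responds to low oxygen, and the sterol and fatty acid pathways respond to lipid supply.

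The share of probes flagged by the scanner software as well above background was 64.3% and 64.5% in the Keap1 null dishes and 69.8% and 71.4% in the allografts. No spot was saturated. Median processed intensity was 61.52 and 61.9 on the dish arrays and 124.4 and 106.1 on the allograft arrays, while their 75th percentiles ranged from 1165 to 1466. The correlation of log2 intensities over the tested targets, defined below, was 0.9952 between the 2 dish arrays and 0.9912 between the 2 allograft arrays. Levels below are log2 of the processed intensity minus the log2 of the 75th percentile of the array, and they compare arrays for a given probe, not genes with each other. Where both arrays of the dimmer group missed the background flag for a gene, its fold is a bound and is written as at least N-fold. Adjusted p-values are from limma with Benjamini-Hochberg adjustment over all targets, and errors after ± are standard errors from that fit, with n = 2 arrays per group.

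Keap1 itself was still measured in the cells labelled Keap1 null. Its level was 2.37 and 2.22 on the dish arrays and 1.00 and 0.92 on the allograft arrays, against 3.32 and 2.99 in WT dishes and 2.85 and 2.46 in WT allografts. Every Keap1 null array lay below every WT array. Where the probe lies relative to the deletion is not given in the sources used here, so the reading does not test for it. Within the Keap1 null line the level fell by 1.34 ± 0.17 from dish to allograft (2.53-fold, adjusted p = 0.000935), and the groups did not overlap. Nfe2l2 read 3.64 and 3.52 in the dishes and 4.09 and 4.12 in the allografts, a difference of 0.52 ± 0.10 with an adjusted p of 0.00506. That small difference turned to -0.34 when arrays were scaled to their median instead of their 75th percentile.

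Among 22922 targets, each a gene or an unnamed transcript read by its strongest probe, 14875 differed between allograft and dish at an adjusted p below 0.05, which is 64.9% of those tested. Of these 8207 were higher in the allografts (35.8% of targets) and 6668 were lower (29.1%). Every count of rises and falls in a gene list below is to be read beside these 2 shares. The groups did not overlap for 14873 of the 14875 targets called, nor for 18757 of all 22922. Rises were larger than falls: 6089 targets rose at least 2-fold and 1808 at least 10-fold, against 2046 and 81 that fell by as much. Of the targets called higher, 2471 were not well above background on either dish array. The balance of directions depended on the scaling. Calls were higher in the allograft in 55.2% of cases with the 75th percentile, in 44.5% with quantile normalisation, in 27.3% when arrays were scaled to their median and in 43.1% among targets well above background on all 8 arrays. Scaling to the median moved the median change of all targets from 0.03 to -0.84, so small rises are read below beside that shift.

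**Figure D1:**
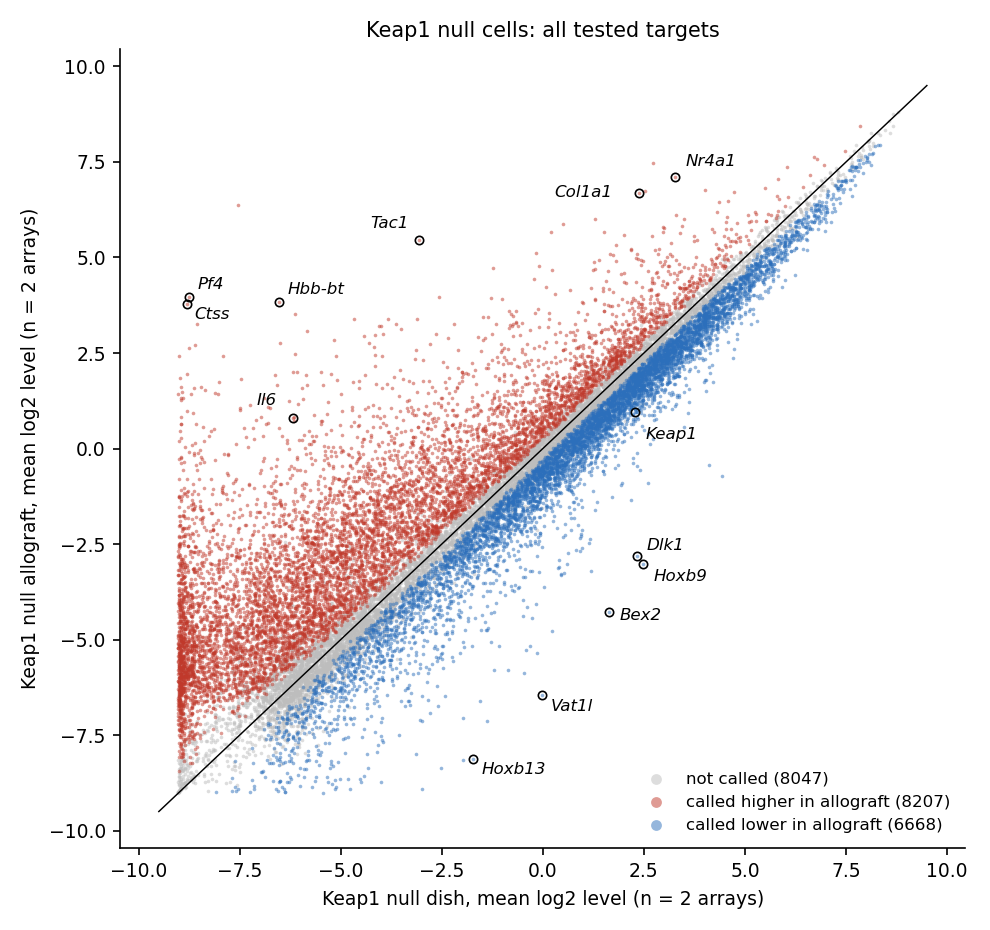
Mean log2 level of each of the 22922 targets on the 2 Keap1 null dish arrays (horizontal) and the 2 allograft arrays (vertical), with the 8207 targets called higher in the allograft and the 6668 called lower in colour. Pf4 and Ctss lie at the upper left, near background in the dish and above the 75th percentile in the allograft, while Hoxb9, Bex2 and Dlk1 lie at the lower right.

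Among the largest rises was that of Pf4, which encodes platelet factor 4 and is made by platelets and by tissue macrophages. It read -8.89 and -8.61 in the dishes and 4.01 and 3.92 in the allografts, at least 1650-fold higher (adjusted p = 1.14e-06). Ctss, the lysosomal protease cathepsin S of antigen-presenting cells, read -8.90 and -8.73 against 3.77 and 3.80, at least 1450-fold higher. Lyz1, a lysozyme gene, went from -8.92 and -8.21 to 3.12 and 3.39, at least 1000-fold higher. None of these 3 was well above background on a dish array, and both allograft arrays were high for each. Other large rises were those of the chemokine Ccl6 (at least 683-fold), the inhibitory leukocyte receptor Pirb (at least 646-fold), the potassium channel Kcnj8 of pericytes (at least 565-fold), haptoglobin, Hp (at least 319-fold) and the beta-globin Hbb-bt, which was above background on 1 dish array.

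Markers of host cell types were counted from lists of known markers. Of 44 macrophage and monocyte markers tested, 39 rose and 1 fell, with a median change of 6.12, or 5.39 with bounded genes at their bound, against 0.03 for all targets and background shares of 35.8% and 29.1%. On the dish arrays 26 of the 44 were not well above background, beside 3035 of all 22922 targets. Such targets were tested because another group was above background, which favours a rise. With normexp, a background correction with an offset that is given under processing, the median was 3.79, with 38 higher and 1 lower. The summed level of the list, in units of the array's 75th percentile, was 17.4 and 16.4 in the dishes and 134 and 138 in the allografts. The pan-leukocyte gene Ptprc read -8.49 and -8.35 in the dishes and -0.25 and -0.28 in the allografts (at least 87.4-fold), and Adgre1, which encodes F4/80, rose at least 89.4-fold. The scavenger receptor gene Cd163 rose at least 145-fold and the lipid-sensing receptor gene Trem2 at least 264-fold. Csf1r, the receptor for the macrophage growth factor CSF1, was above background in the dishes at -5.65 and -4.86 and rose 53.3-fold. Mertk, a receptor for the uptake of dying cells, was the marker that fell: it read -0.48 and -0.55 in the dishes and -2.21 and -2.24 in the allografts.

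Neutrophil and mast cell markers rose as well. All 21 neutrophil markers called were higher, of 22 tested, with a median of 3.70, or 2.17 at the bounds. With normexp the median was 0.93, below the value at the bounds, with 19 higher and 0 lower. Of the 22, 14 were not well above background on either dish array, so the filter favoured a rise. With no filter on dim probes, 19 of 24 rose. The summed level of the tested markers was 0.544 and 0.555 in the dishes against 22.6 and 22.6 in the allografts. S100a8 and S100a9, subunits of calprotectin, rose at least 96.1-fold and at least 288-fold, and the receptor gene Clec4e at least 294-fold. Not every granule gene was equal on the 2 allograft arrays: the cathelicidin Camp read -3.99 and -6.42 there, and Stfa1, a stefin, -1.02 and -4.36. Of 11 mast cell markers 10 rose and 1 fell, with a median of 4.72, or 3.64 at the bounds. Not well above background on either dish array were 5 of the 11, and with normexp the median was 2.25. The chymase Mcpt4 went from -8.52 and -7.49 to 2.13 and 1.34 (at least 350-fold), the carboxypeptidase Cpa3 rose at least 165-fold, and Hdc, the enzyme that makes histamine, rose 178-fold from -5.90 and -5.75 to 1.95 and 1.36. Gata2, a transcription factor of several lineages, was the member called lower, at 1.43 and 1.57 against 1.24 and 1.19 (adjusted p = 0.0468), and it lost that call whenever a Keap1 null array was left out.

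Of 28 tested T, B and NK cell markers, 11 rose, 3 fell and 14 were not called. Not well above background on either dish array were 16 of the 28. The rises were near the share of all targets, of which 35.8% were higher and 29.1% lower. With quantile normalisation 8 of the 28 markers rose and 8 fell. The median of these markers was 0.43, or 0.00 at the bounds, and it changed sign with other settings. It was -0.43 with the array median, -0.08 with quantile normalisation and -0.07 among targets above background on all 8 arrays. Their summed level was 3.01 and 3.27 in the dishes and 1.85 and 2.24 in the allografts. The T cell receptor genes stood near the detection limit or did not pass the test: Cd3d and Cd3g were not well above background on any Keap1 null array, and Cd3e read -4.13 and -3.62 in the dishes and -4.50 and -3.86 in the allografts. Among the rises were genes of cytotoxic granules, with perforin, Prf1, at least 14.1-fold higher and granzyme B, Gzmb, at least 17.7-fold higher.

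Vessel and mural cell markers were higher almost throughout. Of 36 endothelial markers tested, 33 rose and 2 fell, with a median of 4.02, or 3.53 at the bounds, and a summed level of 44.8 on both dish arrays against 104 and 109 in the allografts. Not well above background on either dish array were 9 of the 36, for which the filter favoured a rise. Endomucin, Emcn, rose at least 286-fold from -8.54 and -8.87 to 1.25 and 1.64. Cdh5, the VE-cadherin of endothelial junctions, read -4.49 and -4.60 in the dishes and 0.74 and 0.95 in the allografts, 42.0-fold higher, and Pecam1 rose at least 32.7-fold. The 2 that fell were Cd34, at 5.02 and 5.01 in the dishes and 4.09 and 3.80 in the allografts, and the peptide hormone gene Apln. Both were measured well above background in the cultured cells. Of 15 pericyte markers 13 rose and none fell, with a median of 2.02, and Rgs5, a regulator of G-protein signalling in mural cells, went from -4.19 and -4.21 to -1.23 and -1.46. For 6 of the 15, neither dish array was well above background.

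Muscle, skin and red cell genes differed between the 2 allografts more than the other groups did. Of 29 skeletal muscle markers 24 rose and 1 fell (median 2.77), and the summed level was 47.3 in the first allograft and 17.0 in the second, against 4.66 and 4.23 in the dishes. Not well above background on either dish array were 10 of the 29, and with normexp the median was 1.13. Myh2, a fast myosin heavy chain, read 3.38 in one allograft and 0.50 in the other, against -8.79 and -8.82 in the dishes, and Acta1, skeletal actin, read 2.22 and -0.11 against -4.03 and -3.49. Without the first allograft the median of the list was 2.09, and without the second 3.66. Red cell genes were higher in the second allograft, with summed levels of 18.0 and 31.8 against 0.180 and 0.222 in the dishes, and 4 of 7 rose. Keratinocyte markers were uneven: 6 of 19 rose, 3 fell, and the median of 0.75 became -0.12 with median scaling and 1.66, with 14 called higher, without the second allograft. Without the first allograft 5 rose and 7 fell. Loricrin, Lor, a protein of the cornified layer, read 0.69 and -3.84 in the 2 allografts. Adipocyte markers rose for 14 of 20 and fell for 1 (median 2.58, or 2.08 at the bounds), with the fatty acid carrier Fabp4 at -0.62 and -0.70 in the dishes and 3.49 and 3.71 in the allografts. For 7 of the 20, neither dish array was well above background.

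**Figure D2:**
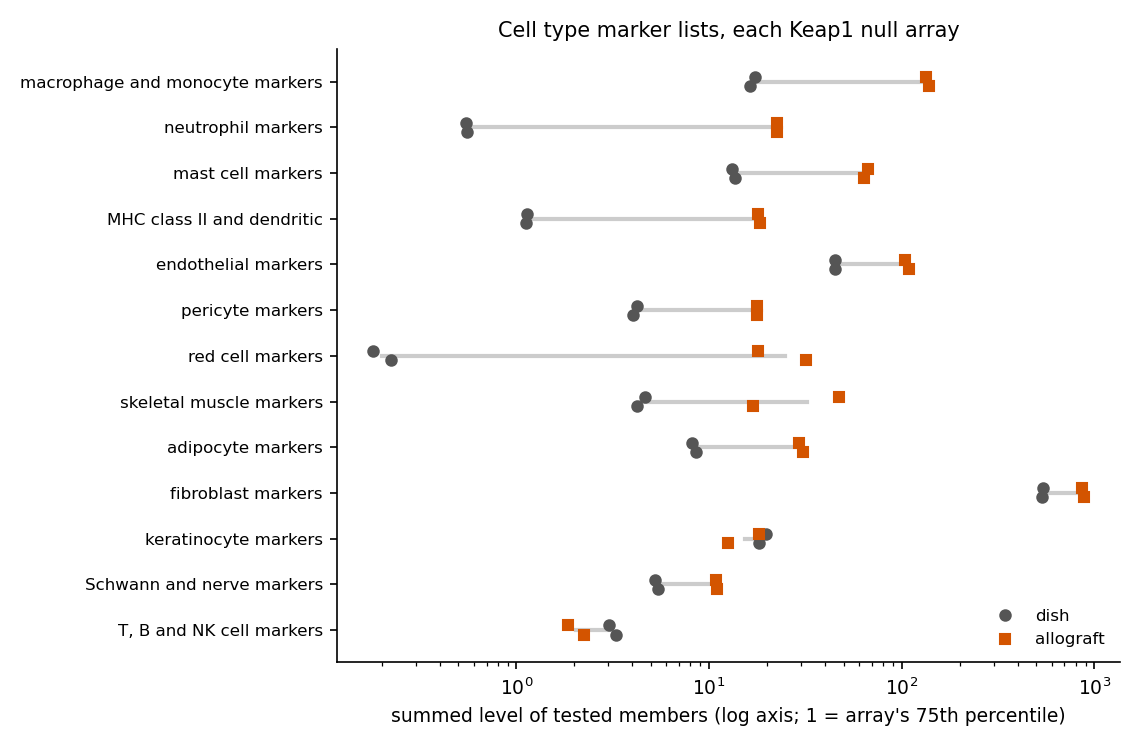
Summed level of the tested markers of 13 cell types on each of the 4 Keap1 null arrays, in units of the array's 75th percentile on a log axis, with one point per array. Neutrophil markers summed to 0.544 and 0.555 in the dishes and 22.6 on both allograft arrays, while skeletal muscle markers summed to 47.3 and 17.0 in the 2 allografts.

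Y-linked genes were also measured. Ddx3y, an RNA helicase gene of the Y chromosome, was not well above background in the dishes (-8.99 and -8.88) and read -2.26 and -2.05 in the allografts, at least 23.6-fold higher. Eif2s3y, a translation factor gene of the Y chromosome, rose at least 31.1-fold from -8.85 and -8.89 to -1.80 and -1.72. Xist, the RNA that silences an X chromosome, read 2.61 and 2.44 in the dishes and 3.55 and 3.28 in the allografts, a difference that was 0.02 with median scaling. Transcripts of these Y-linked genes were measured on both allograft arrays and on neither dish array. The part of host cell RNA in the differences reported below was not tested.

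Fibroblast identity and matrix genes changed with growth in the mouse. Of 30 fibroblast markers tested, 26 were well above background on both dish arrays, and so were 19088 of all 22922 targets. The count is near that share and does not test the label of the cells. In the allografts 24 of the 30 rose and 3 fell (median 2.90, or 2.91 at the bounds). Pdgfra, the receptor for PDGF-A, read -1.53 and -1.5 in the dishes and 2.57 and 2.54 in the allografts, and Thy1 went from 1.65 and 1.59 to 4.61 and 4.68. Of 33 collagen genes 26 rose and 1 fell, with a median of 1.49, or 1.46 at the bounds. Col1a1, a chain of fibrillar type I collagen, read 2.35 and 2.41 in the dishes and 6.59 and 6.76 in the allografts, 19.6-fold higher (4.30 ± 0.11, adjusted p = 3.4e-06). Its partner chain Col1a2 rose 6.72-fold, from 4.14 and 3.90 to 6.63 and 6.91, and Col3a1 rose 6.91-fold. Col13a1, a transmembrane collagen, rose 125-fold, from -6.18 and -6.12 to 0.95 and 0.69. Col8a1, a short-chain collagen, was the one that fell, from 3.43 and 3.16 to 2.07 and 1.89.

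Other matrix proteins moved both ways. Of 55 tested, 31 rose and 11 fell, with a median of 0.80 that became -0.07 with median scaling. The small leucine-rich proteoglycan lumican, Lum, read -4.53 and -4.83 in the dishes and 3.25 and 3.50 in the allografts, 267-fold higher, and decorin, Dcn, rose 26.6-fold from 2.76 and 2.71 to 7.47 and 7.45. Periostin, Postn, a matricellular protein of wounds and tumour stroma, rose 81.1-fold, from -4.60 and -4.52 to 1.39 and 2.17. In the opposite direction, the fibulin Efemp1 fell 5.81-fold, from 4.03 and 4.04 to 1.11 and 1.89, and Ccn4, a matricellular WNT target, fell 3.98-fold. Both of these were strongly measured in the cultured cells, and their allograft arrays lay below both dish arrays.

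Matrix proteases and their inhibitors rose in 23 of 34 cases and fell in 3 (median 1.48). Gelatinase B, Mmp9, which neutrophils and osteoclasts also make, went from -4.39 and -4.47 to 2.91 and 3.00, a 167-fold rise. Cathepsin K, Ctsk, rose 98.8-fold, Adamts2, which trims procollagen, 19.9-fold, and the aggrecanase Adamts1 21.6-fold, the last from -0.74 and -0.94 to 3.66 and 3.51. The inhibitors Timp1 and Timp2 did not pass the test, at 5.40 and 5.37 against 5.42 and 5.93 for Timp1 and at 6.61 and 6.40 against 6.63 and 6.28 for Timp2. Contractile genes gave a mixed count, with 7 of 23 higher and 12 lower (median -0.29). Smoothelin, Smtn, and calponin 2, Cnn2, fell 4.94-fold and 3.50-fold, while Fap, a surface protease of activated fibroblasts, rose at least 55.0-fold and desmin, Des, at least 17.0-fold. The 2 allograft arrays differed for desmin, at -1.79 and -3.47.

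Cytokines and growth factors of inflammation rose for 22 of 32 tested and fell for 5, with a median of 1.67, or 1.58 at the bounds. Il6, a cytokine of the acute phase, read -6.18 and -6.21 in the dishes and 0.73 and 0.86 in the allografts, 127-fold higher (6.99 ± 0.11, adjusted p = 1.75e-06). Il11, a cytokine of the same receptor family, read -0.17 and -0.30 against 4.53 and 4.35, 25.5-fold higher. Tnfsf11, the osteoclast factor RANKL, went from -5.62 and -5.67 to 0.97 and 0.76, 91.5-fold higher. All 3 were above background in the cultured cells, and the groups did not overlap. Il33, an alarmin, rose 62.2-fold and Il1b, a cytokine of activated macrophages, rose at least 77.9-fold. Nrg1, a ligand of ERBB receptors, fell 8.50-fold, from -1.91 and -2.03 to -5.12 and -4.99, and Csf1, the macrophage growth factor, fell 2.61-fold.

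Chemokines and their receptors were higher in 31 of 41 cases and lower in 6 (median 2.66, or 2.61 at the bounds). Not well above background on either dish array were 18 of the 41, so the filter favoured a rise. With normexp the median was 1.29, with 27 higher and 6 lower. Cxcl14 rose 478-fold from -5.70 and -5.96 to 3.00 and 3.15, Ccl9 rose 257-fold and Ccl8 187-fold. Cxcl12, a stromal chemokine that recruits CXCR4-bearing cells, moved the other way, from 2.48 and 2.34 in the dishes to -0.66 and -0.45 in the allografts, a 7.82-fold fall (adjusted p = 9.77e-06). Ccl5, an attractant of T cells, fell 5.44-fold, from 2.44 and 2.19 to -0.17 and -0.08. Of 26 complement genes 22 rose and 1 fell, with a median of 2.90. The filter favoured a rise here too, since 10 of the 26 were not well above background on either dish array. The C1 inhibitor Serping1 read -7.33 and -6.49 in the dishes, above background on 1 of them, and 1.30 and 1.37 in the allografts. Factor B, Cfb, of the alternative pathway rose at least 129-fold.

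Interferon response genes rose in 36 of 56 cases and fell in 8 (5 without the first dish array), with a median of 1.32, or 1.27 at the bounds. With median scaling 27 were higher and 17 lower, and the median was 0.45. The antiviral synthetases Oas2 and Oas1a read -8.82 and -8.88, and -7.23 and -6.16, in the dishes, and -2.13 and -1.52, and -1.27 and -1.08, in the allografts. Oas2 was at least 29.7-fold higher. The GTPase Iigp1 rose at least 31.8-fold and Trim30a at least 24.4-fold. Psmb8, a subunit of the immunoproteasome, rose 39.9-fold, from -4.88 and -5.06 to 0.26 and 0.44. Some genes of the list went down: the chemokine Cxcl10 fell from 1.16 and 1.24 to -0.43 and -0.36, a 3.02-fold change, and Ifit3 fell from -0.63 and -0.50 to -2.20 and -2.12, also 3.02-fold. Irf1, a transcription factor of the pathway, read 2.85 and 2.82 in the dishes and 2.85 and 2.81 in the allografts. Leukocyte markers rose on the same arrays (Ptprc at least 87.4-fold), and their part in the interferon list was not tested.

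The windows from 250 bases before to 50 bases after each RefSeq start site (build GRCm38.p6, both strands searched) were read for the interferon-stimulated response element, spelled GAAA, any 2 bases, GAAA. It was found in 24 of 54 windows of list members (44.4%) and in 3.44% of all 32851 windows. Of the 46 members with a window, 23 held it, and of these 13 were called higher, 4 lower and 6 not called. Among the 23 without it, 14 were higher, 4 lower and 5 not called, so the share of calls in each direction was close in both. Windows of Oas1a and Trim30a, which rose, and of Cxcl10, which fell, are printed to show the same motif in members of opposite direction. Letters of the motif or of its reverse complement are in capitals, and in Oas1a the 2 matches overlap. They lie at chr5:120907476-120907775, chr7:104446076-104446375 and chr5:92348840-92349139, each on the minus strand.
Oas1a: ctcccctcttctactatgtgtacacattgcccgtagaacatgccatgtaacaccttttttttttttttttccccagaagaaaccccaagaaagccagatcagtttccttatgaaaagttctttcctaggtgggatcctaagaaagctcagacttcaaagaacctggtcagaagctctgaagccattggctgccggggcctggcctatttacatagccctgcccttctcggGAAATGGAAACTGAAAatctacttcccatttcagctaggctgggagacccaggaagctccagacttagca
Trim30a: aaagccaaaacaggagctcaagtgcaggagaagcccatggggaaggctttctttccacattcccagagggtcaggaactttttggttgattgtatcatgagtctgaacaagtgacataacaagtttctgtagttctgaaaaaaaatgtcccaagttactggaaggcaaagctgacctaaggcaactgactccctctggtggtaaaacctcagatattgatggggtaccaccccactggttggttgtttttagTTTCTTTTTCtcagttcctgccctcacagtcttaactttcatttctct
Cxcl10: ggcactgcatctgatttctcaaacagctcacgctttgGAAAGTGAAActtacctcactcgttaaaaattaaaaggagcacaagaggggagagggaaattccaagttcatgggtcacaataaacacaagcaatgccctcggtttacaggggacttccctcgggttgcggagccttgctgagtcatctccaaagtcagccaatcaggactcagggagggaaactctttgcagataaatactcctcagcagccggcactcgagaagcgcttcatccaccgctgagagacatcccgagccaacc

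For MHC class II and dendritic cell genes 13 of 15 rose and none fell (median 3.64, or 2.19 at the bounds). With normexp the median was 0.84, below the value at the bounds, with 11 higher and 0 lower. H2-Ab1, a class II chain, read -7.34 and -7.24 in the dishes and 0.00 and 0.08 in the allografts, at least 108-fold higher. For MHC class I presentation 10 of 24 rose and 4 fell, beside shares of 35.8% and 29.1% among all targets, and 2 fell without either dish array or without the second allograft. The median of 0.13 became -0.74 with median scaling, with 4 higher and 13 lower. The light chain B2m read 4.47 and 4.59 in the dishes and 4.67 and 4.54 in the allografts and was not called. Psmb9 of the immunoproteasome rose 10.0-fold and the peptide transporter Tap2 6.46-fold, while Nlrc5, the activator of class I genes, fell 2.24-fold. The class II genes are those that professional antigen-presenting cells express, and 9 of the 15 were not well above background on either dish array. These 9 were tested because another group was above background, which favours a rise.

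All 44 NRF2 targets tested were well above background on both Keap1 null dish arrays, as were 19088 of all 22922 targets. On the 2 WT dish arrays 42 and 43 of the 44 were, so detection was not particular to the Keap1 null line. In the Keap1 null allografts 26 of the 44 were higher, 4 were lower and 14 were not called, with a median of 0.45. Of all targets 35.8% were higher and 29.1% lower. With median scaling the median was -0.42, with 10 higher and 22 lower. Slc7a11, the cystine carrier that feeds glutathione synthesis, read -0.30 and -0.17 in the dishes and 2.47 and 2.79 in the allografts, 7.28-fold higher (2.86 ± 0.16, adjusted p = 3.19e-05). Gpx2, a glutathione peroxidase, rose 11.5-fold from -3.88 and -3.98 to -0.36 and -0.45. The exporter Abcc4 went from 2.40 and 2.44 to 4.75 and 4.85, 5.20-fold. For all 3 genes both allograft arrays lay above both dish arrays.

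Among the conjugating enzymes, Gsta2 and Gsta3 rose 3.20-fold and 4.0-fold, though the alpha class genes are near copies and their probes may share signal. Gsta3 lost its call when any Keap1 null array was left out. Mgst1, a membrane-bound glutathione transferase, rose 3.14-fold. Gstp1 read 5.86 and 5.77 in the dishes and 7.04 and 7.05 in the allografts, a 2.35-fold rise. The aldehyde oxidase Aox1 rose 3.58-fold. Nqo1, the quinone reductase widely used as a reading of NRF2, and Gclc, the catalytic subunit of the first enzyme of glutathione synthesis, were chosen after their values were seen. Nqo1 read 3.67 and 3.76 against 4.84 and 4.66 (1.03 ± 0.10, 2.04-fold) and Gclc 2.84 and 2.81 against 4.05 and 3.78. With median scaling the differences of Gstp1, Nqo1 and Gclc were 0.36, 0.16 and 0.22 and did not pass the test. Not all members followed: the glutathione synthetase Gss fell from 1.56 and 1.52 to 0.75 and 0.71 (1.76-fold), Gstm5 fell 1.69-fold, and the ferritin chain Fth1 read 8.03 and 8.09 in the dishes and 8.05 and 8.09 in the allografts. The core letters of the antioxidant response element, TGACNNNGC, stood in 9 of 42 windows of list members (21.4%) and in 12.4% of all windows. Of the 8 members with a match 6 were higher, 1 lower and 1 not called, and of the 26 without one 15, 2 and 9.

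The pentose phosphate and NADPH genes, which NRF2 also drives, gave more falls than rises. Of 17 tested, 1 was higher, 7 were lower (4 without the second dish array) and 9 were not called, with a median of -0.19, or 0.03 with quantile normalisation. With median scaling all 17 were lower and the median was -1.06. Transketolase, Tkt, read 6.38 and 6.31 in the dishes and 6.33 and 6.23 in the allografts, and transaldolase, Taldo1, 6.30 and 6.44 against 6.57 and 6.53. Neither was called. Prps1, which makes the ribose donor for nucleotides, fell 3.98-fold from 3.35 and 3.41 to 1.16 and 1.62, and the folate enzyme Mthfd1 fell 2.82-fold.

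Targets of ATF4 and the genes of serine synthesis gave 17 rises and 7 falls of 36 (4 falls with either dish array left out), with a median of 0.37 that became -0.50 with median scaling, with 9 rises and 17 falls. Fgf21, a stress hormone, was not well above background in the dishes (-8.01 and -8.05) and read -3.08 and -3.15 in the allografts, at least 12.2-fold higher. Nupr1, a stress-induced chromatin protein, read 1.34 and 1.21 against 4.71 and 4.70, a 10.8-fold rise (adjusted p = 5.32e-06). Aldh1l2, a mitochondrial folate enzyme, rose 4.75-fold, the glycine carrier Slc6a9 3.92-fold and the stress cytokine Gdf15 6.34-fold. In contrast Asns, asparagine synthetase, stayed close, at 5.50 and 5.35 against 5.61 and 5.37, and Chac1, which degrades glutathione, at 1.75 and 1.69 against 2.04 and 2.03. Neither passed the test. Phgdh, the entry enzyme of serine synthesis, fell 1.66-fold and the transcription factor Atf3 1.97-fold.

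The core of the amino acid response element, TGATGNAA, was found in 11 of 35 windows of the list (31.4%) and in 3.97% of all windows of that length, both strands searched. Of the 28 members with a window, 11 held it: 4 of these were called higher, 4 lower and 3 not called. Of the 17 without it 10 were higher, 2 lower and 5 not called. Windows of Fgf21 and Nupr1, which rose, and of Chac1 and Asns, which were not called, show that the same letters stood beside different readings. Capitals mark the match or its reverse complement. The windows lie at chr7:45615441-45615740 (minus strand), chr7:126625421-126625720 (minus), chr2:119350992-119351291 (plus) and chr6:7693160-7693459 (minus) of GRCm38.p6.
Fgf21: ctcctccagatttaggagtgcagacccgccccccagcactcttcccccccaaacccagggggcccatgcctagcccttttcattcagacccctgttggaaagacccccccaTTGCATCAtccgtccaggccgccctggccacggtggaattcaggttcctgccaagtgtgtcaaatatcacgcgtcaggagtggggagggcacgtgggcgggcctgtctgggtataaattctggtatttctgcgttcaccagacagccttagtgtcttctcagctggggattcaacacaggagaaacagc
Nupr1: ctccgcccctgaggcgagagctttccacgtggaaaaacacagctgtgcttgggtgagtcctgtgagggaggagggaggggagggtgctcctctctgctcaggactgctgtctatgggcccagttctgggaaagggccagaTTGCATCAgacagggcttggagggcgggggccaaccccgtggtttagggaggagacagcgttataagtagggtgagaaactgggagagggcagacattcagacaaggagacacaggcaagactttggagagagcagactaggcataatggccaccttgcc
Chac1: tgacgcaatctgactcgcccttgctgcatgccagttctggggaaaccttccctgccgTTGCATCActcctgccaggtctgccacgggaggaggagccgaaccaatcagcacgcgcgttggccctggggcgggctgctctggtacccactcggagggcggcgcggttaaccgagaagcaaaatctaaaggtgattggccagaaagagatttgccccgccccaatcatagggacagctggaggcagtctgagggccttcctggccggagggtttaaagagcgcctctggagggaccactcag
Asns: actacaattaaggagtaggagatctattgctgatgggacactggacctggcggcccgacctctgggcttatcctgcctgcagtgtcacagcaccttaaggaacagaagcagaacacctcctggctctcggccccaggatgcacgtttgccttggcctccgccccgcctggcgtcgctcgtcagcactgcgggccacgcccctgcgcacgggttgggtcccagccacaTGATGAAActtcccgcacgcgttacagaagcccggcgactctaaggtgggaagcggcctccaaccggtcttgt

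Genes of the response to low oxygen were higher in 23 of 39 cases and lower in 3 (1 without either dish array or the first allograft), with a median of 0.59, or -0.28 with median scaling (9 higher, 15 lower). Stanniocalcin 1, Stc1, read -1.0 and -1.03 in the dishes and 3.96 and 3.89 in the allografts, a 30.6-fold rise. The HIF subunit gene Epas1, strong in endothelium, rose 27.9-fold, the transcription factor Nfil3 11.1-fold, the lipase inhibitor Angptl4 5.44-fold and the mitophagy receptor Bnip3 3.66-fold. A few members moved down: the prolyl hydroxylase Egln3, itself a HIF target, read 0.49 and 0.54 against 0.00 and 0.22 and lost its call with either dish array or the first allograft left out, and Loxl2, a collagen cross-linking enzyme, fell 1.64-fold. Glycolysis genes were mostly not called, with 9 of 26 higher and 3 lower, and their median was 0.02, or -0.84 with median scaling. The glucose carrier Slc2a3 and the lactate carrier Slc16a3 rose 3.69-fold and 3.86-fold. Phosphoglycerate kinase, Pgk1, read 6.69 and 6.74 in the dishes and 6.51 and 6.62 in the allografts, and Ldhb, a lactate dehydrogenase subunit, fell 2.62-fold.

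Immediate early genes, which respond to growth factors and to tissue handling within minutes to hours, split into rises and falls. Of 31 tested, 14 rose and 9 fell, beside shares of 35.8% and 29.1% among all targets, so the falls were near the share of all targets. The median was 0.23, or -0.64 with median scaling. The orphan receptor gene Nr4a1 read 3.33 and 3.21 in the dishes and 7.19 and 7.01 in the allografts, a 14.2-fold rise, and its relative Nr4a2 rose 17.6-fold, from 0.08 and 0.09 to 4.32 and 4.13. Ptgs2, the inducible cyclooxygenase, rose 8.03-fold from 2.13 and 2.23 to 5.12 and 5.25, and Fos 7.91-fold. Jun and Jund went down together, Jun from 2.83 and 2.85 to 1.76 and 1.80 and Jund from 4.80 and 4.90 to 3.70 and 3.69. How long tumours were handled before extraction is not given in the labels.

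**Figure D3:**
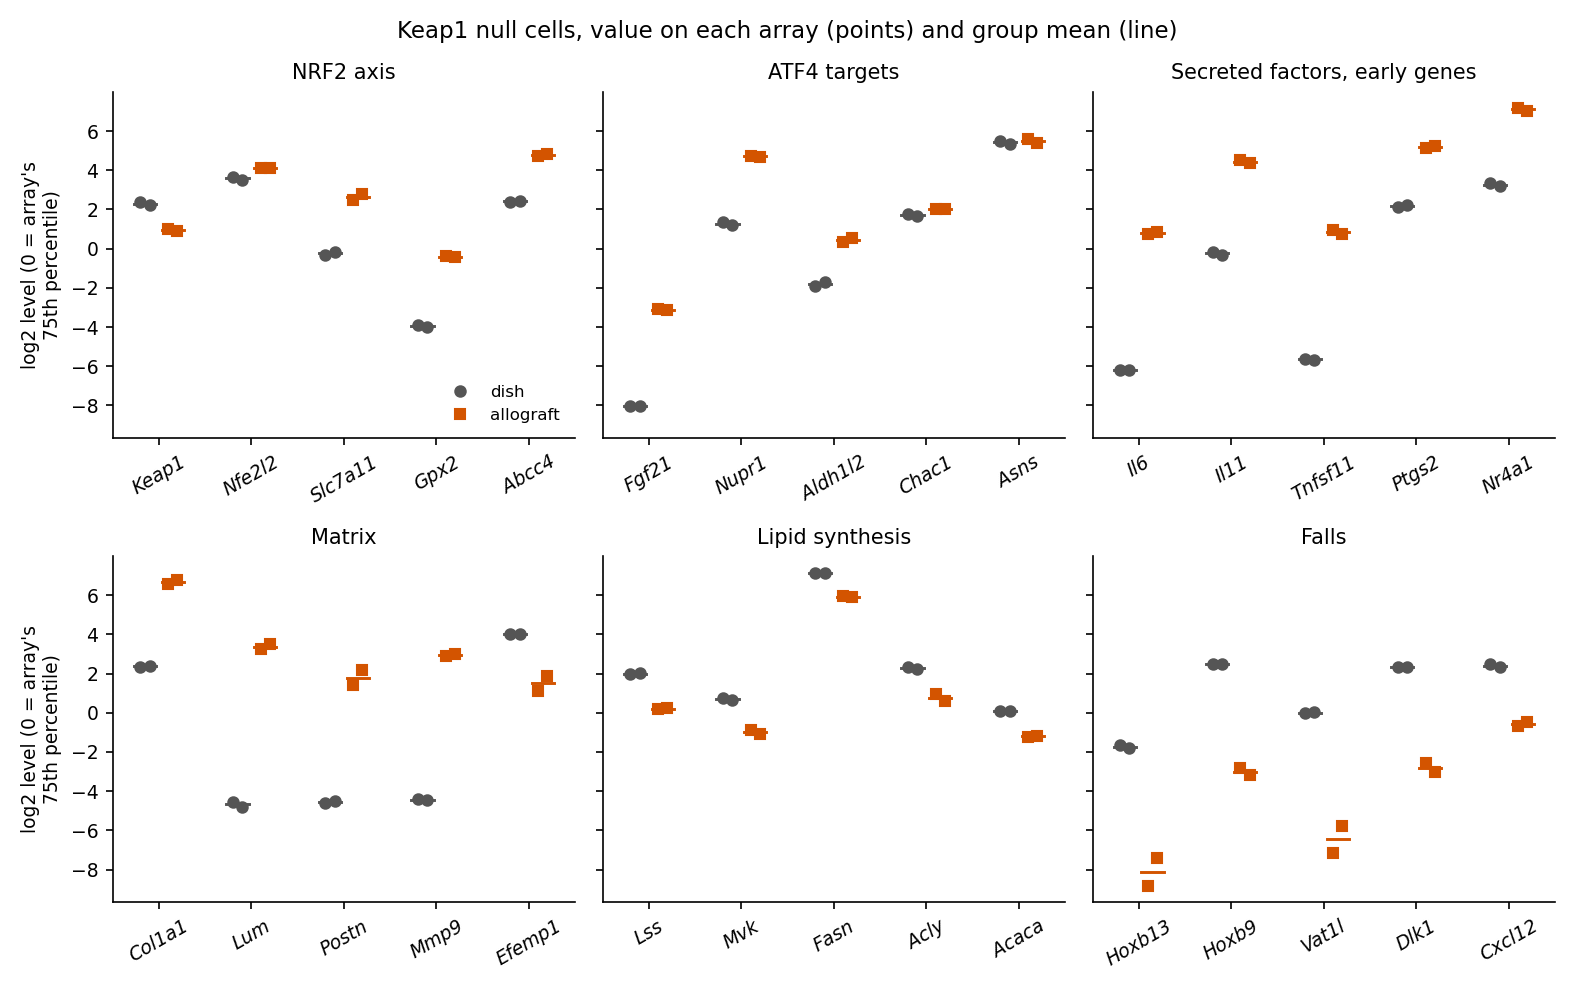
Log2 level of 30 genes on the 4 Keap1 null arrays in 6 panels (NRF2 axis, ATF4 targets, secreted and early genes, matrix, lipid synthesis, falls), with one point per array. The 2 arrays of a group lie close together for Nr4a1, at 3.33 and 3.21 in the dishes and 7.19 and 7.01 in the allografts. The 2 allograft arrays lie further apart for some genes, such as Hoxb13 and Vat1l. Asns and Chac1 are near level between dish and allograft.

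Of 39 ribosome biogenesis genes 38 fell and none rose, with a median of -1.11: Rrp9, a processing factor of ribosomal RNA, fell 3.61-fold from 2.52 and 2.38 to 0.62 and 0.58, Polr1b, a subunit of RNA polymerase I, 3.56-fold, and the pseudouridine synthase Dkc1 2.77-fold. Nucleolin, Ncl, fell from 7.22 and 7.25 to 6.15 and 6.30. Cytosolic ribosomal proteins fell in 47 of 76 cases and rose in none, with 29 not called (median -0.38), and scaling by quantiles left 25 falls and 2 rises, while without the first dish array 27 fell. Relative to the median of all targets, their median was -0.41 with the 75th percentile and 0.00 with quantiles. Proteasome subunits fell in 34 of 38 cases (median -0.62), with Psmd6 2.17-fold lower, and respiratory chain subunits in 57 of 76, with 19 not called (median -0.47), or in 37 without the first dish array and 30 with quantile scaling. Among the latter, Atp5g1, a subunit of the rotor ring of ATP synthase, fell 2.57-fold from 4.93 and 4.78 to 3.51 and 3.49.

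Replication and division genes fell together, though not without exception. Of 43 replication genes 36 fell and 1 rose, with a median of -0.64. The primase subunit Prim1 read 5.17 and 5.10 in the dishes and 3.60 and 3.70 in the allografts, a 2.80-fold fall, and the licensing factor Cdc6 fell 2.37-fold. Of 49 mitosis genes 34 fell and 2 rose (median -0.54), with 22 falls without the first dish array and 21 without the second. The kinetochore gene Spc24 fell 2.65-fold and survivin, Birc5, 1.87-fold. The proliferation marker Mki67 was one of the 2 that rose, from 4.19 and 4.03 to 4.79 and 4.60, a difference of 0.58 ± 0.11 that turned to -0.28 with median scaling. Cyclin B1, Ccnb1, read 2.80 and 2.57 against 2.63 and 2.31 and was not called.

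Chaperones and lipid synthesis were also lower. Heat shock and cytosolic chaperone genes fell in 29 of 38 cases and rose in 5 (median -0.78). The chaperonin subunit Cct3 fell 2.61-fold and the mitochondrial chaperonin gene Hspe1 2.59-fold, from 5.62 and 5.61 to 4.23 and 4.26. The small heat shock proteins Cryab and Hspb2, which muscle also expresses, rose 7.19-fold and 12.2-fold, Cryab from 1.05 and 0.91 to 3.97 and 3.69. Folding genes of the endoplasmic reticulum rose in 11 of 28 cases and fell in 4, beside shares of 35.8% and 29.1% among all targets. With only the 4 Keap1 null arrays 7 rose and 2 fell, and at an adjusted p below 0.01 6 rose and 0 fell. The median was 0.18, or -0.69 with median scaling, with 1 higher and 22 lower. The oxidase Ero1a rose 2.48-fold. Of 27 cholesterol synthesis genes 22 fell and 1 rose, with a median of -0.81. Lanosterol synthase, Lss, read 1.96 and 2.03 in the dishes and 0.17 and 0.26 in the allografts, 3.44-fold lower. Mevalonate kinase, Mvk, fell 3.20-fold.

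For fatty acid synthesis 13 of 18 fell and 1 rose (median -0.48). Fatty acid synthase, Fasn, read 7.13 and 7.11 in the dishes and 5.95 and 5.91 in the allografts, a 2.28-fold fall (adjusted p = 6.3e-05), ATP-citrate lyase, Acly, fell 2.85-fold and acetyl-CoA carboxylase 1, Acaca, 2.45-fold, though the mean of the Acaca probes, at -0.43, did not pass the test. Acacb, the second carboxylase, which is linked to fatty acid oxidation in muscle, rose 3.39-fold. Lysosomal genes rose in 27 of 49 cases and fell in 4, with a median of 0.31, or -0.56 with median scaling. The proteases that rose most, Ctss and Ctsk, are those described above, and Ids, an enzyme of glycosaminoglycan breakdown, fell 2.60-fold.

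Targets of p53 were lower more often than higher: 20 of 34 fell and 5 rose, with a median of -0.57. Cyclin G1, Ccng1, read 2.99 and 3.05 in the dishes and 0.99 and 1.18 in the allografts, a 3.83-fold fall, Ei24 fell 2.58-fold and Psrc1 2.47-fold. Cdkn2a, the locus of p16 and p19, is not a target that p53 induces. It fell 3.55-fold, from 2.98 and 2.82 to 1.37 and 0.76. Gdf15, also an ATF4 target, was the largest rise in the list at 6.34-fold.

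Secreted regulators of development moved in both directions. Genes of the TGF-beta and BMP response rose in 16 of 32 cases and fell in 5 (median 0.39, or -0.48 with median scaling). Tgfbi, an adhesion protein induced by TGF-beta, read 2.53 on both dish arrays and 6.67 and 6.80 in the allografts, 18.4-fold higher. The activin subunit Inhba rose 7.00-fold from 3.35 and 3.25 to 6.12 and 6.10, and its binding protein follistatin, Fst, 10.1-fold, while Ccn2 fell 3.73-fold from 2.95 and 2.83 to 0.78 and 1.20. In the WNT pathway 22 of 37 rose and 9 fell (median 0.79, or -0.08 with median scaling): the WNT antagonist Sfrp4 rose 220-fold, from -5.88 and -5.84 to 2.17 and 1.68, and Wnt2 rose 46.8-fold, above background on 1 dish array. Wnt10b and the potentiator Rspo2 fell, by at least 6.33-fold and at least 6.70-fold. Of 18 genes of the IGF axis 14 rose and 3 fell (median 1.49): the binding protein Igfbp7 read -0.15 and -0.17 against 5.14 and 5.08, 38.5-fold higher, and Igfbp5 rose 49.9-fold. Angiogenic factors rose in 20 of 30 cases and fell in 4 (median 1.26), with Hgf 56.9-fold higher, from -5.73 and -5.56 to 0.02 and 0.35, and Vegfc 2.96-fold lower, from 0.87 and 0.83 to -0.81 and -0.63.

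Hox genes, whose clusters set position along the body axis, fell in 17 of 33 cases and rose in 9, with a median of -0.72. Hoxb13 read -1.65 and -1.80 in the dishes and was not well above background in the allografts (-8.86 and -7.39), at least 32.3-fold lower. Hoxb9 read 2.50 and 2.49 against -2.84 and -3.17, a 45.2-fold fall (adjusted p = 3e-06), and Hoxc9 2.37 and 2.26 against -0.43 and -0.47. In the D cluster, Hoxd8 and Hoxd4 rose 6.27-fold and 15.2-fold. A fall of this size was rare, since 81 of the 6668 targets called lower fell at least 10-fold.

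Outside the Hox list, Vat1l read -0.03 and 0.02 in the dishes and -7.14 and -5.79 in the allografts, 87.7-fold lower and above background on 1 allograft array. Bex2, a small adaptor expressed in brain, fell 61.0-fold from 1.56 and 1.73 to -4.24 and -4.34. Dlk1, an imprinted NOTCH ligand of preadipocytes, read 2.33 and 2.32 against -2.56 and -3.04, a 34.8-fold fall. The cardiac factor Nkx2-5 fell at least 41.3-fold, the adrenergic receptor gene Adra1b 36.8-fold and the xenobiotic oxidase Cyp1a1, a target of the aryl hydrocarbon receptor, at least 27-fold. For each of these genes both allograft arrays lay below both dish arrays.

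Whether these changes differed between the lines was tested by the interaction of line and growth. It was called for 7530 targets, 32.9% of those tested: the change in the Keap1 null line was above that in the WT line for 3630 (15.8%) and below it for 3900 (17%). In both lines 6195 targets were called higher and 4713 lower, and 1225 targets with a called interaction were called in opposite directions. The injected cell number differed between the lines, 3000000 against 10000000, and cannot be told apart from the genotype here.

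The ATF4 list differed between the lines in 1 direction. For 32 of its 36 genes the Keap1 null change lay above the WT change and for none below it, and the list's median was 0.37 in the Keap1 null line and -1.37 in the WT line. Chac1, level in the Keap1 null cells, read 3.89 and 3.81 in WT dishes and 0.07 and -0.53 in WT allografts, an interaction of 4.39 ± 0.27 (adjusted p = 0.000237). Asns fell by 2.43 in WT and gave an interaction of 2.50 ± 0.24. For Fgf21 the interaction was 5.44 ± 0.22. NRF2 targets were above in 25 of 44 cases and below in 9, with medians of 0.45 and -0.40. Slc7a11 fell by 1.23 in WT, from -4.29 and -4.22 to -5.34 and -5.64, against its rise in the Keap1 null cells (interaction 4.10 ± 0.22), whereas Mgst1 rose more in WT (interaction -5.82 ± 0.16).

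Of 31 immediate early genes 19 lay above the WT change and 5 below, and of 32 cytokines and growth factors 15 above and 11 below. Nr4a1 read 3.29 and 3.24 in WT dishes and 2.12 and 1.99 in WT allografts, so it fell in that line and rose in the Keap1 null line (interaction 5.04 ± 0.15, adjusted p = 6.22e-05). Ptgs2 did the same, with an interaction of 5.88 ± 0.22. Il11 was not called in WT, at -1.54 and -1.67 against -1.65 and -2.24 (interaction 5.02 ± 0.29), and Tnfsf11 likewise, at -4.89 and -4.61 against -4.59 and -4.41 (interaction 6.26 ± 0.20). Tac1, the gene for the precursor of substance P, was above background on all 8 arrays and had one of the larger interactions. Tac1 read -3.11 and -3.01 in Keap1 null dishes and 5.57 and 5.36 in their allografts, 370-fold higher, and -3.22 and -3.13 against -4.08 and -4.14 in WT (interaction 9.46 ± 0.15, adjusted p = 4.4e-05).

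Other groups lay below the WT change. For the interferon list 44 of 56 genes were below and 1 above, although it rose in both lines (medians 1.32 and 3.15), and for MHC class I presentation 21 of 24 were below and 1 above. Macrophage markers were below for 30 of 44 and above for 2. Cx3cr1, the fractalkine receptor of monocytes, was not well above background on any Keap1 null array and read -0.01 and -0.18 in WT allografts (interaction -7.47 ± 0.43). Mast cell markers went the other way, with 10 of 11 above the WT change and none below. Leukocyte markers therefore differed between the allografts of the 2 lines in the same comparison, and their part in the interferon and MHC differences was not tested. Of 55 other matrix proteins 29 were below and 6 above, with Ltbp2, a TGF-beta binding protein of microfibrils, at -0.63 and -0.65 against -1.19 and -1.22 in Keap1 null cells and at -3.53 and -3.70 against 2.77 and 2.66 in WT (interaction -6.89 ± 0.14).

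Several of the falls were not shared. Hoxb13 stayed at -1.97 and -2.17 in WT dishes and -2.17 and -2.16 in WT allografts (interaction -6.30 ± 0.63), and 17 of the 33 Hox genes were below the WT change while 4 were above. Dlk1 rose in WT, from -3.25 and -3.54 to -0.71 and -0.55 (interaction -7.89 ± 0.27), and Cxcl12 rose there from 1.84 and 1.74 to 3.16 and 3.21 (interaction -4.36 ± 0.16). Among 39 ribosome biogenesis genes 4 were above the WT change and none below, or 10 and 1 with the replicate block and at most 2 above with any 1 array left out. Among 43 replication genes 4 were above and 2 below, or 8 and 3 with the block and 1 to 3 above with any 1 array left out. Several other lists that mostly fell had more genes above the WT change. They were 16 of 49 mitosis genes, 14 of 38 chaperones, 11 of 27 cholesterol synthesis genes and 11 of 38 proteasome subunits. Below it were 0, 2, 2 and 0. Of 76 cytosolic ribosomal proteins 15 were above and none below. With quantile normalisation 5 mitosis genes and 0 cytosolic ribosomal proteins were above. A gene that missed the threshold is not shown to be alike in both lines.

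**Figure D4:**
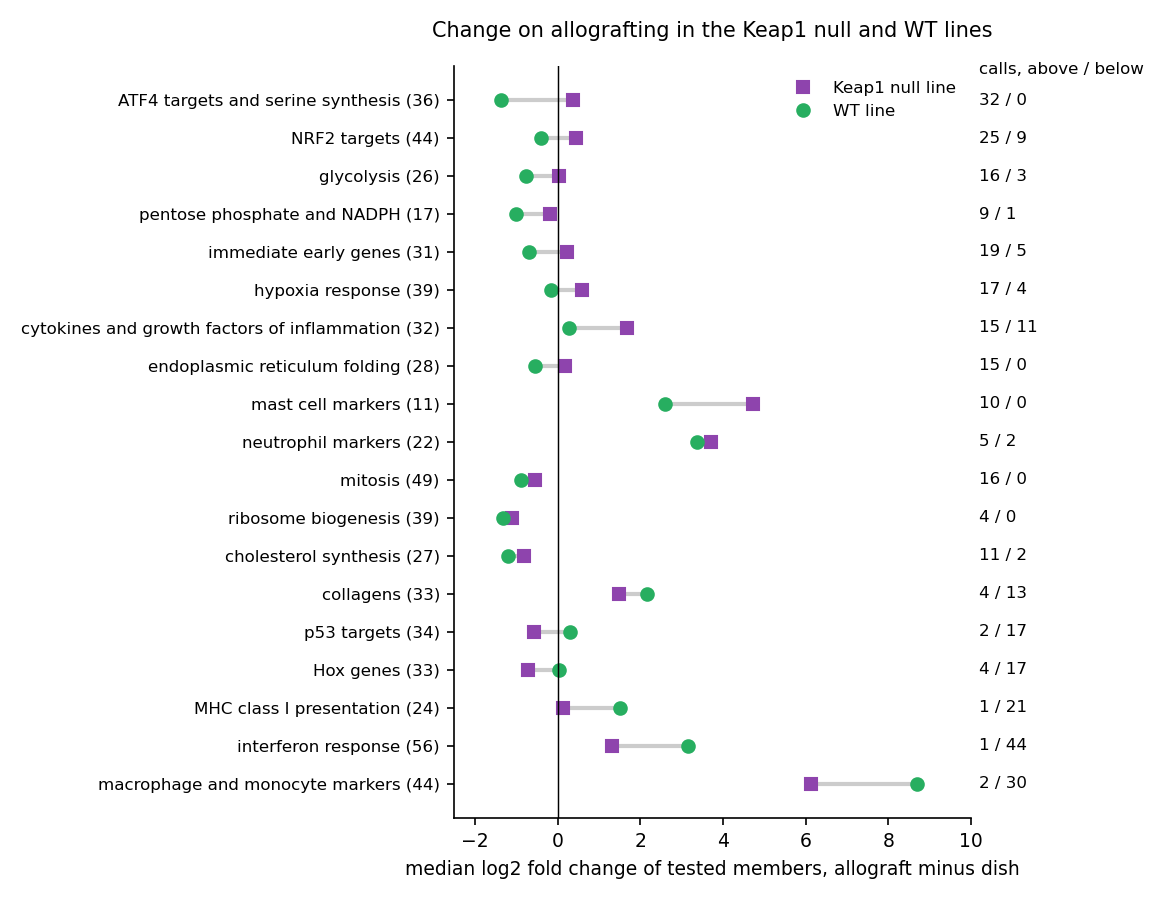
Median log2 change from dish to allograft of 19 gene lists in the Keap1 null line and in the WT line, with the number of tested genes whose change was above or below that of the WT line at the side. The ATF4 list stands at 0.37 and -1.37 with 32 genes above and 0 below, and the interferon list at 1.32 and 3.15 with 1 above and 44 below.

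**Figure D5:**
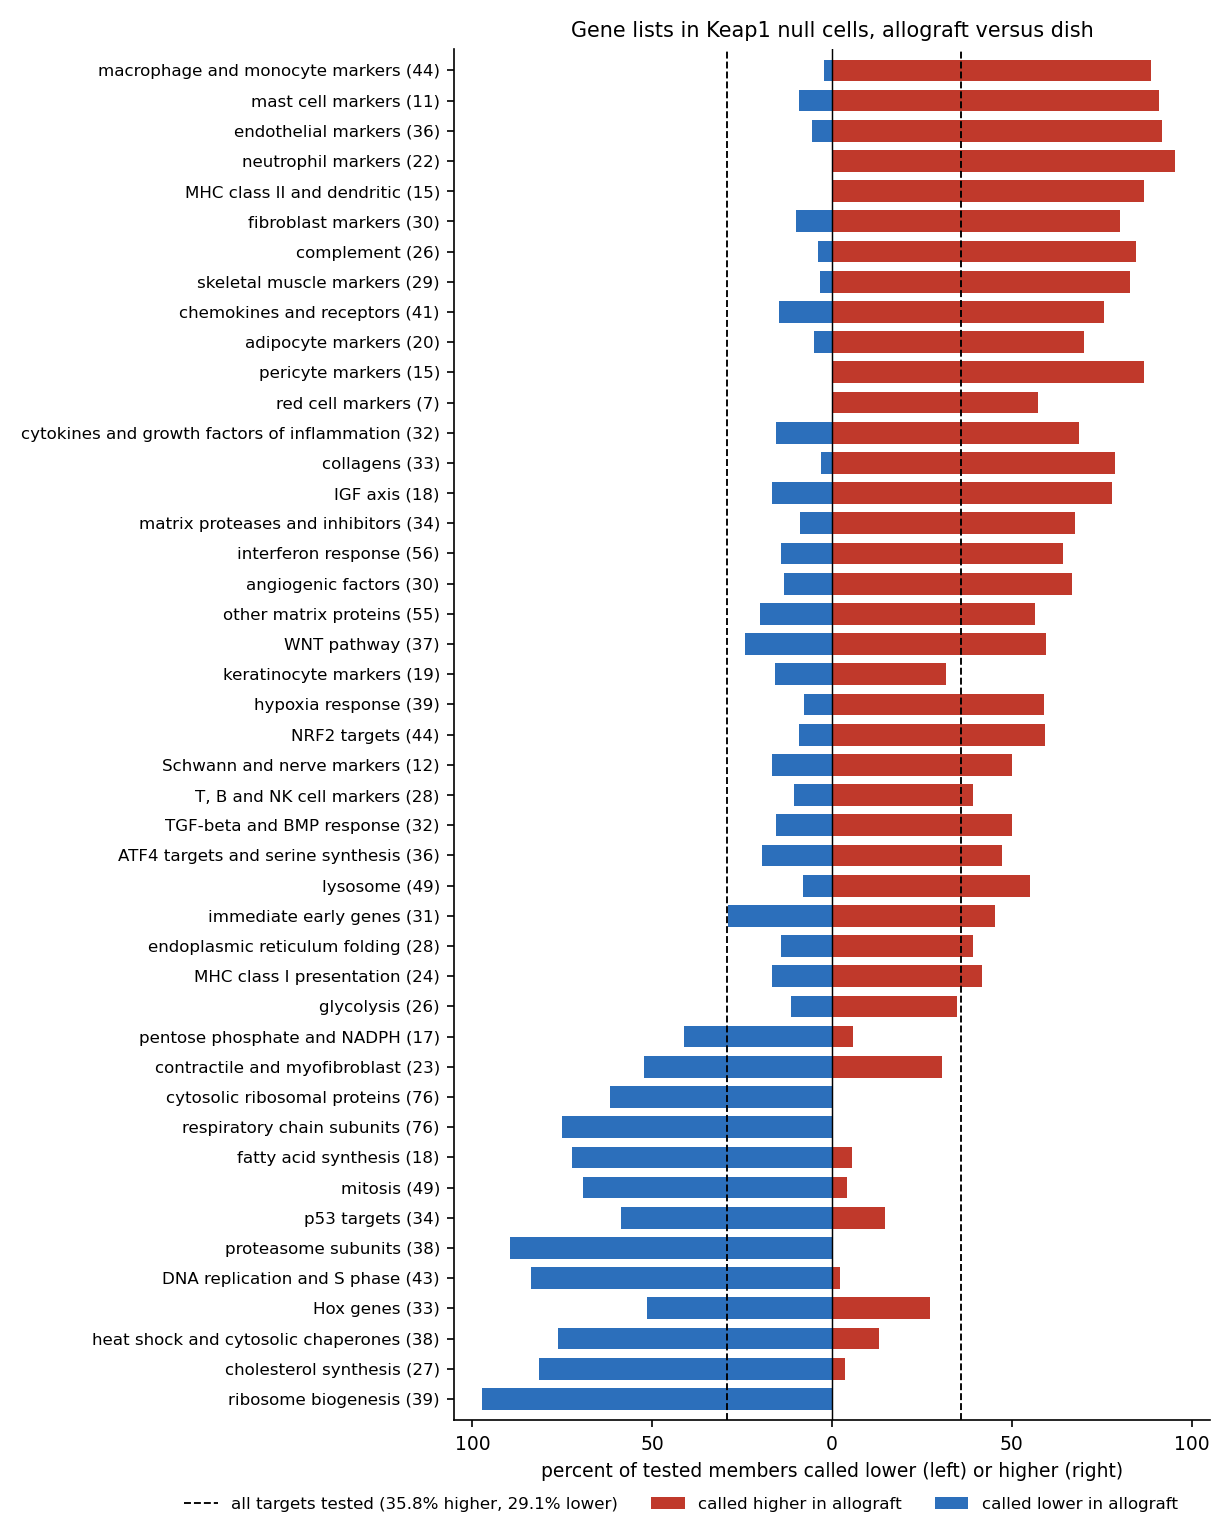
Percent of the tested genes of each list called higher (right) or lower (left) in Keap1 null allografts than in dishes, with dashed lines at the shares of all targets, 35.8% and 29.1%. Macrophage markers lie beyond the line for rises, with 39 of 44 higher, and ribosome biogenesis beyond the line for falls, with 38 of 39 lower.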

How the data were processed

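RNA from 8 samples was hybridised to 1-colour Agilent mouse arrays. The deposited scanner files give 1 processed intensity a spot. Per the file headers it was background-subtracted and detrended by Feature Extraction 10.7.3.1 from Agilent. The deposited value table, whose scaling is not stated, holds the same linear intensity within 0.496%. Control spots were left out, and log2 of the processed intensity minus each array's 75th percentile was used. A probe was tested if 1 group or more had it well above background on both of its arrays, and the brightest tested probe stood for a symbol, which left 22922 targets. A fit of 4 group means over all 8 arrays was made with limma 3.58.1 in R 4.3.3 (4 residual and 1.83 prior degrees of freedom), with Benjamini-Hochberg adjustment and a threshold of 0.05. With 2 arrays against 2 an exact permutation test cannot go below 0.33. In simulated data with these group sizes, 45% of 2-fold and 79% of 4-fold changes were recovered, with 5 false calls. Only 100 targets of each size were changed among 22900 there, whereas 64.9% of targets were called here. The adjusted threshold depends on that share, so these rates need not hold for this comparison. The number of arrays limits the precision.

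A bound for a dim group used, per array, the higher of the lowest signal among probes well above background and the probe's own signal. Replicate 1 of every group lay on one slide and replicate 2 on another. Deviations of same-numbered arrays from their group means correlated at 0.25 to 0.43, so the replicate block was run as an alternative. Alternatives were other scalings, normexp with an offset of 50 on the median spot signal (not the mean, which the files used here do not hold), other filters and probe rules, the 4 Keap1 null arrays alone, a trend, a threshold of 0.01 and each array left out. Leaving out WT arrays was added after seeing the data.

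Genes were named by rule: Keap1 and Nfe2l2; the 12 largest rises and falls; the 8 strongest rises and falls of at least 2-fold; up to 6 called members per list, with up to 2 that moved against it and 2 bright ones not called; the 6 largest interactions each way and up to 3 per list; sex-linked genes; and the first 3 markers of each cell type. The comparison and the 46 gene lists were chosen with earlier results of these data known. Some members of the lists are not reported here. Gene symbols came from a RefSeq gene table, matched by the accession that the array gives for each probe. An accession that matched no symbol, or several, was left without one. Promoter windows came from RefSeq tables of GRCm38.p6, while the array design names another build.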

Additional observations from a re-analysis of the deposited data

Results flagged for a closer look

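The change from dish to allograft differed between the Keap1 null and WT lines for 7530 targets by the interaction test in limma, adjusted over all targets. The results below are singled out because that test passed for a gene described above; each value is the Keap1 null change minus the WT change on the log2 scale. Above the WT change were Tac1 at 9.46, Tnfsf11 at 6.26, Ptgs2 at 5.88, Fgf21 at 5.44, Nr4a1 at 5.04, Il11 at 5.02, Chac1 at 4.39, Slc7a11 at 4.10 and Asns at 2.50. Below it were Dlk1 at -7.89, Cx3cr1 at -7.47, Ltbp2 at -6.89, Hoxb13 at -6.30, Mgst1 at -5.82 and Cxcl12 at -4.36. Fgf21 in the dish, Hoxb13 in the allograft and Cx3cr1 on all Keap1 null arrays were not well above background, so these values are fitted differences against readings at background.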

How the results depend on the processing

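The count of 14875 targets called lay between 11810 and 18533 over all alternatives, the lowest with an adjusted p below 0.01. Scaling to the array median gave 5066 higher and 13467 lower, and targets well above background on all 8 arrays gave 4900 higher. At an adjusted p below 0.01 the interaction was called for 4237. Leaving out 1 array gave 12343 to 14622 called, 7232 to 8133 higher, 5111 to 6489 lower, and 5239 to 6680 interactions. With the replicate block, which here is also the slide, 16487 targets and 9380 interactions were called; it moved no count over all targets by more than 1.5 times. Of 189 genes named, 168 kept their direction and side of the threshold with median scaling and 181 with quantiles. Nfe2l2 and Mki67 turned to -0.34 and -0.28 with median scaling; its construction shifts all targets by a constant amount per array, so both moved with the shift. For genes near background the signal over background limits every fold to a bound.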

Other observations

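Targets whose accession matched no single RefSeq gene symbol differed in balance from those with one. Of 8065 without a symbol, 4200 (52.1%) were called higher in the allografts and 1194 (14.8%) lower, with a median of 0.73. Of 14857 with a symbol, 4007 (27%) were higher and 5474 (36.8%) lower, with a median of -0.17. Not well above background on either dish array were 1938 (24%) of the former and 1097 (7.38%) of the latter.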
